A study of Mus musculus with 9 samples.

Results

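Calcium-binding proteins of neurons were followed through the layers of the mouse piriform cortex, by 10 named genes: Pvalb, Calb1, Calb2, Hpca, Hpcal1, Hpcal4, Ncald, Vsnl1, Nrgn and Pcp4. They were chosen by name from the 33940 annotated genes in the count tables, and each gene was represented by the transcript with the highest mean count over the 9 samples. The tissue came from wild type C57BL/6 mice, aged 8 weeks by the labels (the methods of the study give another age), and no sample had a treatment. Each of the 3 layers was cut from frozen brain sections by laser capture, in which a laser excises a chosen area, and sequenced in 3 replicates. The labels call the layers A, B and C and give no key to layers I, II and III, so the letters are kept here, with A1 for layer A replicate 1 and so on. No source used here says how many mice contributed to a replicate, or whether replicates came from separate mice. The p-values therefore measure the spread between these samples, which may be technical and may be too small for a statement about animals.

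The genes encode 3 kinds of protein. Parvalbumin (Pvalb), calbindin (Calb1) and calretinin (Calb2) are calcium buffers with EF-hands, helix-loop-helix units that hold a calcium ion in the loop, and they are widely used to label classes of cortical interneuron, although calbindin also occurs in principal neurons. Hippocalcin (Hpca), its relatives Hpcal1 and Hpcal4, neurocalcin delta (Ncald) and visinin-like protein (Vsnl1) are neuronal calcium sensors of the VILIP family. They carry a fatty acid at the amino terminus that is exposed when calcium binds, which moves the protein to membranes. Neurogranin (Nrgn) and Purkinje cell protein (Pcp4) hold no EF-hand and bind calmodulin, the general calcium sensor, through a short IQ motif, so for these 2 genes the name calcium-binding protein is loose.

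These kinds were visible in the coding sequences, read from the GENCODE M21 transcripts on GRCm38, the assembly that is also called mm10. The standard 12-residue EF-hand pattern was matched 2 times in Pvalb, 4 times in Calb1, 5 times in Calb2, 3 times in each of the 5 VILIP genes and 0 times in Nrgn and Pcp4. A loop of each EF-hand gene and the IQ motif of the other genes are shown as coding DNA, 5′ to 3′, because they mark what separates the groups. Capitals mark the first and last codon of a loop, which encode calcium ligands, or the codons of the isoleucine-glutamine pair and of the basic residues that define the IQ motif.
Pvalb: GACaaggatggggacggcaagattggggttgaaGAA
Calb1: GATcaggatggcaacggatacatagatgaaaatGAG
Calb2: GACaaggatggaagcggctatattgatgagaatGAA
Hpca: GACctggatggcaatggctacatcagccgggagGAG
Hpcal1: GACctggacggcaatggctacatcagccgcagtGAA
Ncald: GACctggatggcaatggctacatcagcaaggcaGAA
Hpcal4: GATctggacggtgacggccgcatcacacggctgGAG
Vsnl1: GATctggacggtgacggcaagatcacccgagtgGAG
Nrgn: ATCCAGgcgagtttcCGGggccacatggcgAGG
Pcp4: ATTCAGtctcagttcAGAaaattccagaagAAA

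The loops of Hpca, Hpcal1 and Ncald resembled each other, as did those of Hpcal4 and Vsnl1, and the whole coding sequences fell in the same way. Coding identity was 86.0% between Hpca and Hpcal1, 80.1% between Hpcal1 and Ncald, 79.3% between Hpca and Ncald and 82.4% between Hpcal4 and Vsnl1, against 67.9% to 72.2% for the remaining pairs. A glycine codon, the site of the fatty acid, followed the start codon in all 5 VILIP genes and in no other gene of the 10. No stretch of 50 bases, the length of a read, was shared between any of the 10 transcripts, so reads of one of them do not match another exactly.

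The transcripts lay on GRCm38 at chr15:78191114-78204237 (Pvalb, minus strand), chr4:15881264-15908064 (Calb1, plus strand) and chr8:110142538-110168206 (Calb2, minus strand). The VILIP genes were at chr4:129111570-129122036 (Hpca, minus strand), chr12:17690856-17791933 (Hpcal1, plus strand), chr4:123183227-123194701 (Hpcal4, plus strand), chr15:37366175-37792433 (Ncald, minus strand) and chr12:11325242-11436613 (Vsnl1, minus strand). Nrgn was at chr9:37544492-37552904 (minus strand) and Pcp4 at chr16:96467606-96525793 (plus strand). All 10 are annotated as protein coding. Of the Pcp4 exons, 37.9% of the bases overlapped annotated exons of Igsf5 on the same strand, and 14.1% of the Ncald exon bases and 3.09% of the Hpca exon bases overlapped other genes on either strand. The libraries did not mark strand, so reads from those stretches cannot be assigned to 1 gene. Several transcripts of 1 gene held almost the same reads, as in Hpca, where the transcripts with the highest and second highest mean count averaged 1767 and 1766.56 counts, so that the values describe the gene rather than an isoform.

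The tables held 23104306 to 76471683 counts per sample. Mitochondrial ribosomal RNA took 55.3% to 70.2% of the layer A counts, 12.8% to 28.1% of those of layer B and 20.5% to 57.1% of those of layer C. Levels are given as CPM, counts per 1000000 after TMM scaling (a factor per sample that evens out composition), and 3 counts, taken as the floor for detection, were 0.0255 to 0.254 CPM on that scale. The floor covers counting error only, since the amplified reads carried no molecular identifiers. One library stood apart: log expression in B3 correlated at 0.888 and 0.880 with B1 and B2, which correlated at 0.978 with each other, and at 0.930 with C3. Results that rest on B3 are given with and without it.

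Calb1, Hpcal1, Ncald, Vsnl1 and Nrgn were lower in layer A than in layers B and C, and Hpcal4 exceeded its layer B level in layer A. Between layers A and B, edgeR's quasi-likelihood test called 6 of the 10 genes at an adjusted p under 0.05, 5 lower in layer A and 1 higher. Over all 56416 transcripts tested, 16.5% were called in this comparison, 5.83% lower in layer A and 10.7% higher. These transcripts include several of 1 gene, whereas the 10 genes are each taken by their highest transcript. A fit on only the highest transcript of each gene called 7 of the 10 genes. It called 3689 of all 15170 genes tested, 1436 lower in layer A and 2253 higher. Every layer A sample lay below every layer B sample for 5 of the 10 genes (15.1% of all transcripts) and above for 1 (17.2% of all transcripts). The median log2 fold change of the 10 genes was -2.12, and that of all transcripts was -0.12. Between layers A and C, 5 of the 10 genes were called, all lower in layer A, and 11.3% of all transcripts were called in this comparison, 4.35% lower in layer A and 6.98% higher. The fit on the highest transcript of each gene called 7 of the 10 here. Of all 15170 genes it called 2773, 1091 lower in layer A and 1682 higher. Every layer A sample lay below every layer C sample for 7 of the 10 genes (14.5% of all transcripts) and above for 1 (17%). The median log2 fold change here was -1.96 for the 10 genes and -0.01 for all transcripts. An edgeR test for a difference between any of the 3 layers called 6 of the 10 genes, with 14.3% of all transcripts called. Without B3, 3 of the genes were called between layers A and B (20.4% of all transcripts) and 9 between layers A and C (17.5%). Both comparisons use the same layer A samples, so they are not independent of each other. In tissue cut from sections, fewer cells of a type and less RNA per cell cannot be told apart.

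**Figure D1:**
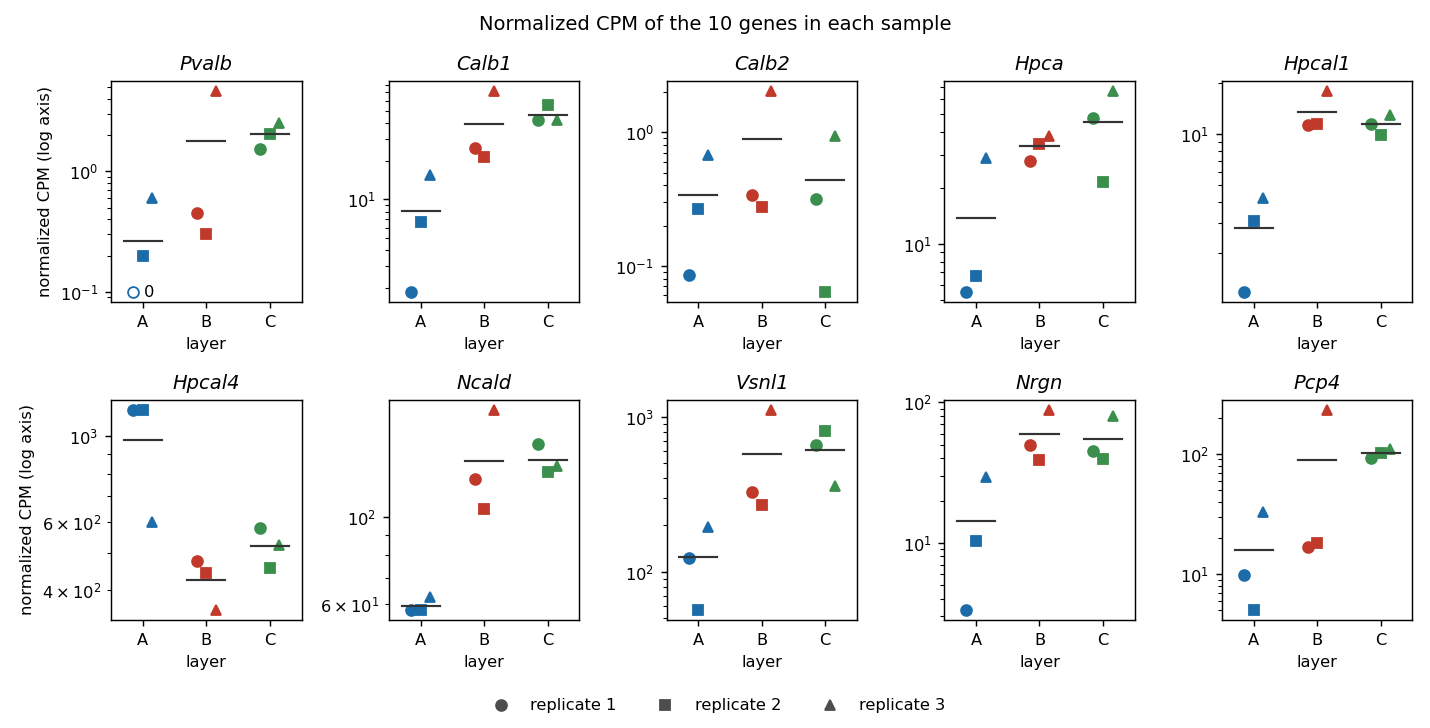
Normalized CPM (log axis, a scale per panel) of each of the 10 genes in the 9 samples, with layers on the x axis, replicates by marker shape and the mean of each layer as a line; the open circle is a count of 0. All layer A samples lie below all others in the panels of Calb1, Hpcal1, Ncald, Vsnl1 and Nrgn, Hpcal4 is the panel in which all of them lie highest, and in Pvalb and Pcp4 B3 lies with or above layer C while B1 and B2 lie near layer A.

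Among the buffers, Calb1 was the only one called. Its level was 1.86, 6.61 and 15.7 CPM in A1, A2 and A3, 25.6, 21.6 and 71.7 CPM in B1, B2 and B3, and 42.4, 55.9 and 42.2 CPM in C1, C2 and C3. All layer A samples lay below all samples of the other layers, and within layer A the values spanned more than within layer C. The means of layers A, B and C were 8.05 ± 7.01, 39.6 ± 27.8 and 46.8 ± 7.83 CPM (SD, n = 3 each). Calb1 had a log2 fold change of -2.27 ± 0.59 (SE) against layer B (edgeR, adjusted p = 0.0149) and -2.51 ± 0.59 against layer C (adjusted p = 0.0145). Without B3 the difference from layer B was -1.47 ± 0.51 and was no longer called (adjusted p = 0.0529). Neither call held without A2 (adjusted p = 0.0706 and 0.0682), and that against layer C was also lost without C1 (adjusted p = 0.0536).

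Pvalb, which marks fast-spiking interneurons, was rare, with a mean of 74.7 counts per sample. The counts were 0, 3 and 24 in A1, A2 and A3, and 20, 13 and 222 in B1, B2 and B3. They were 62, 32 and 296 in C1, C2 and C3. As CPM this was 0, 0.2004 and 0.598 in layer A, 0.449, 0.3002 and 4.62 in layer B, and 1.52, 2.04 and 2.52 in layer C. Every layer C sample was above every layer A sample, whereas B1 and B2 lay among the layer A values and B3 lay above layer C. At the floor of 3 counts, a level below 0.254 CPM could not have been detected in A1. Against layer C the log2 fold change was -2.65 ± 0.97, which did not pass (edgeR, adjusted p = 0.0955), and against layer B it was -2.47 ± 0.97, which did not pass either (adjusted p = 0.0970). Without B3 the first was -2.62 ± 0.64 and was called (adjusted p = 0.0102), and the second was -0.15 ± 0.74 (adjusted p = 0.921), while without B2 the second was -2.96 and was called (adjusted p = 0.0388). The Pvalb transcript is among the candidate genes that the study picked from these same libraries, so its pattern here is not independent evidence.

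Calb2, which marks another group of interneurons, had the lowest level per kilobase of the 10 genes in every layer and did not differ detectably at this depth. Its counts were 1, 4 and 27 in layer A, 15, 12 and 98 in layer B and 13, 1 and 111 in layer C, in the order of the replicates. In CPM these were 0.0847, 0.267 and 0.673 in layer A, 0.337, 0.277 and 2.04 in layer B, and 0.319, 0.0638 and 0.945 in layer C. The layers overlapped fully, and replicate 3 was the highest of each layer. Against layer B its log2 fold change was -1.21 ± 0.93 (edgeR, adjusted p = 0.431), and against layer C -0.35 ± 0.93 (adjusted p = 0.875). The sign of the first reversed without B3, to 0.38 ± 0.88 (adjusted p = 0.820).

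The VILIP genes held both the decrease with the smallest adjusted p of the 10 genes and the only increase. Hpcal1, a close relative of hippocalcin, measured 1.19, 3.07 and 4.21 CPM in A1, A2 and A3, against 11.3, 11.5 and 17.9 CPM in B1, B2 and B3 and 11.4, 9.95 and 13.02 CPM in C1, C2 and C3. The groups did not overlap, and layers B and C shared one range. Its log2 fold change was -2.23 ± 0.42 against layer B (edgeR, adjusted p = 0.00238) and -1.99 ± 0.42 against layer C (adjusted p = 0.00853). It was called in both comparisons in each of the 9 fits that left out 1 sample. Of its 50-base stretches, 7.18% also occurred in transcripts of other genes.

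Ncald, a sensor that interacts with the cytoskeleton, was the most even of the 10 within layer A. It measured 57.8, 57.8 and 62.5 CPM there, 125, 105 and 188 CPM in layer B and 154, 130.3 and 134 CPM in layer C. No sample of layer A reached the lowest of the other layers. Ncald changed by a log2 fold change of -1.23 ± 0.28 against layer B (edgeR, adjusted p = 0.00821) and -1.23 ± 0.28 against layer C (adjusted p = 0.0132). Against layer B it was called in each of the 9 fits without 1 sample, and against layer C in 6 of them, the exceptions being those without A1, A2 or C1 (adjusted p = 0.0507, 0.0556 and 0.0834).

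Vsnl1, an abundant sensor of forebrain neurons, measured 122, 56.2 and 193 CPM in A1, A2 and A3. It measured 329, 269.8 and 1112 CPM in B1, B2 and B3, and 658, 814 and 358 CPM in C1, C2 and C3. Layer A lay below both other layers without overlap, and B3 held 3.72 times the mean of B1 and B2. On the log2 scale the difference was -2.20 ± 0.54 against layer B (edgeR, adjusted p = 0.0116) and -2.30 ± 0.55 against layer C (adjusted p = 0.0148). Without B3 the former was -1.23 ± 0.42 (adjusted p = 0.0515). It was also lost without A1 or A2 (adjusted p = 0.0556 and 0.0586), and the latter was lost without A1, A2, C1 or C2 (adjusted p = 0.0676, 0.0684, 0.0625 and 0.0582).

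Hpca, best known from hippocampal pyramidal cells, did not pass in either comparison. It measured 5.504, 6.68 and 28.9 CPM in A1, A2 and A3, 27.9, 34.2 and 37.8 CPM in layer B and 47.5, 21.4 and 66.2 CPM in layer C. A3 lay within the ranges of the other layers, while A1 and A2 lay far below them. Its log2 fold change was -1.27 ± 0.54 against layer B (edgeR, adjusted p = 0.127) and -1.70 ± 0.54 against layer C (adjusted p = 0.0553). Without A3 these were -2.43 (adjusted p = 0.00399) and -2.87 (adjusted p = 0.00494), and without B3 the difference between layers A and C was called as well (adjusted p = 0.0324), as it was without C2 (adjusted p = 0.0463).

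Hpcal4 ran the other way. It measured 1165, 1169 and 601 CPM in A1, A2 and A3, 475, 444 and 355 CPM in B1, B2 and B3, and 580.5, 458 and 523 CPM in C1, C2 and C3. All layer A samples were above all others, A1 and A2 by a wide margin and A3 only just above C1. The means of layers A, B and C were 978 ± 327, 425 ± 62.1 and 520.4 ± 61.3 CPM (SD, n = 3 each). Hpcal4 had a log2 fold change of 1.203 ± 0.31 against layer B (edgeR, adjusted p = 0.0141) and 0.91 ± 0.31 against layer C, which did not pass (adjusted p = 0.0693). The call against layer B was lost without A1 (1.06, adjusted p = 0.0574) and without A2 (1.06, adjusted p = 0.0635), and the difference from layer C was called without A3 (1.18, adjusted p = 0.0189) and without B3 (0.92, adjusted p = 0.0407). Its second transcript, which is shorter, gave 1.15 against layer B (adjusted p = 0.0177).

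The contrast between Hpcal4 and its family was measured as log2 CPM of Hpcal4 minus the mean log2 CPM of Hpca, Hpcal1, Ncald and Vsnl1 in the same sample, a measure chosen after the values were seen. The difference was 6.31, 6.18 and 4.11 in A1, A2 and A3, 2.99, 2.94 and 1.70 in layer B and 2.75, 2.73 and 2.70 in layer C. It separated layer A from each other layer without overlap, by 2.99 against layer B and 2.80 against layer C on the log2 scale (two-sided exact permutation test, p = 0.1 for each, the smallest that 3 against 3 allows). Layer C was narrow, at 2.73 ± 0.03 (SD, n = 3), compared with 5.53 ± 1.24 in layer A. Vsnl1, the nearest relative of Hpcal4 in coding sequence, was among the genes lower in layer A.

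**Figure D2:**
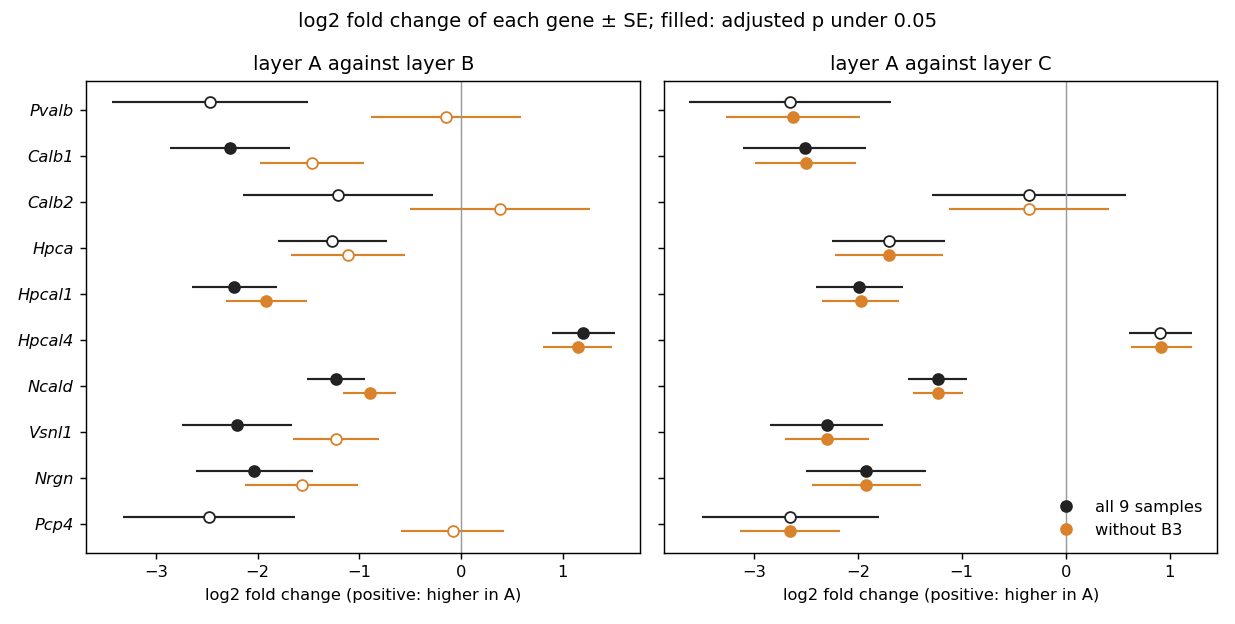
log2 fold change ± SE of each gene between layer A and layer B (left) and layer A and layer C (right), with all 9 samples (black) and without B3 (orange); filled points have an adjusted p under 0.05. Hpcal4 is the only gene to the right of 0 with all 9 samples, and leaving out B3 moves Pvalb and Pcp4 against layer B from -2.47 and -2.48 to -0.15 and -0.08.

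Of the calmodulin-binding genes, Nrgn was lower in layer A and Pcp4 did not pass with all 9 samples. Nrgn encodes a postsynaptic protein of principal neurons that holds calmodulin when calcium is low. It measured 3.30, 10.2 and 29.3 CPM in A1, A2 and A3, 49.98, 39.0 and 88.9 CPM in layer B, and 45.1, 39.4 and 79.9 CPM in layer C. The groups did not overlap, but layer A spanned almost an order of magnitude. The log2 fold change was -2.04 ± 0.58 against layer B (edgeR, adjusted p = 0.0243) and -1.92 ± 0.57 against layer C (adjusted p = 0.0420). Of the 9 fits that left out 1 sample, 6 kept the call against layer B and 4 kept that against layer C, and without B3 the former was -1.57 ± 0.56 (adjusted p = 0.0594). The other losses against layer B were without A1 and A2 (adjusted p = 0.0695 and 0.107), and those against layer C without A1, A2 or any 1 of the layer C samples (adjusted p = 0.0651 to 0.161).

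Pcp4, which speeds the exchange of calcium on calmodulin, measured 9.82, 5.01 and 32.97 CPM in layer A, 17.0, 18.3 and 234 CPM in layer B and 92.8, 102 and 109 CPM in layer C. B1 and B2 lay inside the layer A range, B3 held 13.3 times their mean, and the layer C samples were close together and above all of layer A. Neither the log2 fold change of -2.65 ± 0.85 against layer C (edgeR, adjusted p = 0.0572) nor that of -2.48 ± 0.85 against layer B passed (adjusted p = 0.0576). Without B3 the former was -2.65 ± 0.48 and was called (adjusted p = 0.00170), and the latter was -0.08 ± 0.51 (adjusted p = 0.936). Both were called when A3, B1 or B2 was left out (adjusted p = 0.0189 to 0.0365).

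With all 9 samples, layers B and C were not separated for any of the 10 genes. The samples overlapped in all 10, whereas 4.67% of all transcripts had every layer B sample below every layer C sample and 3.92% had it above. For Pvalb, Calb1, Ncald, Vsnl1 and Pcp4 the overlap came from B3 alone, since B1 and B2 lay below every layer C sample. In the other genes B1 and B2 overlapped layer C too. The share of all transcripts separated in this way without B3 was not computed. edgeR called 0 of the 10 genes, and 0 had an unadjusted p under 0.05. DESeq2 called 0 of them too, though it gave Pcp4 no adjusted p. Of all 56416 transcripts edgeR called 0 here as well (0%), and 4.11% had an unadjusted p under 0.05. DESeq2 called 130 of the 56416, 29 higher and 101 lower in layer B. The edgeR log2 fold changes of the 10 genes ran from -0.44 ± 0.53 (Hpca) to 0.86 ± 0.88 (Calb2), and that of Ncald was 0.00 ± 0.28. Without B3, 3 of the genes had an unadjusted p under 0.05, against 9.55% of all transcripts, and none was called (0.0305% of all transcripts). These were Pcp4 at -2.57 ± 0.56 (edgeR, adjusted p = 0.0912), Pvalb at -2.48 ± 0.70 (adjusted p = 0.177) and Vsnl1 at -1.07 ± 0.44 (adjusted p = 0.441), all lower in the remaining layer B samples. In the same fit Calb1 was at -1.03 ± 0.53 and Ncald at -0.33 ± 0.27 (edgeR, adjusted p = 0.566 and 0.753).

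Several marker lists moved with the B3 values. Sst, a peptide of another interneuron class, measured 4.36 and 4.27 CPM in B1 and B2 and 72.9 CPM in B3, and 49.1 to 71.8 CPM in layer C. The sum of 9 GABAergic markers was 119, 116 and 362 CPM in B1, B2 and B3, 314 to 432 CPM in layer C and 328 to 617 CPM in layer A. The summed oligodendrocyte markers were 46.8 and 50.7 CPM in B1 and B2 and 235 CPM in B3. The summed pan-neuronal markers were 3480, 2889 and 6794 CPM in B1, B2 and B3, while the 6 glutamatergic markers summed to 399, 335 and 256 CPM. Snap25 alone held 1758, 1351 and 4302 CPM of the pan-neuronal sums. Of the pan-neuronal markers, all but Rbfox3 and Syp were higher in B3 than in B1 and B2. Microglia markers were at 17.4, 18.7 and 47.9 CPM and astrocyte markers at 676, 698 and 1108 CPM. Their part in the B3 values of Pvalb, Pcp4 and Vsnl1 was not tested.

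Every non-neuronal list but the oligodendrocyte markers stood higher in layer A than in either other layer. The summed astrocyte markers were 4829 to 10294 CPM in layer A but 676 to 1108 CPM in layer B and 1199 to 1650 CPM in layer C, and all 8 were called in both comparisons. The summed meningeal and pericyte markers were 89.4 to 193 CPM in layer A and at most 8.41 CPM elsewhere, microglia markers 109 to 142 against at most 55.7, and endothelial markers 56.8 to 75.7 against at most 15.1. The summed pan-neuronal markers ran the other way, at 1370 to 1975 CPM in layer A against 2889 to 6794 CPM in layer B and 3322 to 4374 CPM in layer C. Of these 10 neuronal markers 8 were called lower in layer A than B (median log2 fold change over the list -1.63), and Map2, whose mRNA is found in dendrites, was at 0.66 ± 0.33 (edgeR, adjusted p = 0.209). No astrocyte, oligodendrocyte, microglia or GABAergic marker was at 0 in any library. The part of these cell types, or of the mitochondrial share, in the differences of the 10 genes was not tested.

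Set beside the neuronal RNA of the same sample, fewer of the genes separated layer A from the other layers. The measure was log2 CPM of a gene minus the median log2 CPM of the 10 pan-neuronal markers, and 3 samples against 3 cannot give an exact permutation p below 0.1, so these values are descriptive. Between layers A and B, 4 of the 10 genes did not overlap, 3 lower in layer A (0.661% of all transcripts on this measure) and 1 higher (38.3%). Calb1 was at -3.61 ± 1.202 in layer A and -2.23 ± 0.13 in layer B, Hpcal1 at -4.83 ± 0.70 and -3.59 ± 0.44, and Vsnl1 at 0.63 ± 0.63 and 1.53 ± 0.30 (SD, n = 3 each). Hpcal4 was at 3.72 ± 0.99 in layer A and 1.40 ± 1.02 in layer B. For each of these 4 the two-sided exact permutation p was 0.1, and 0.273 after Benjamini-Hochberg adjustment over the 30 comparisons of this kind.

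Ncald was the contrary case. It was lower in layer A as CPM, yet beside the neuronal markers layers A, B and C were at -0.26 ± 0.38, -0.24 ± 0.40 and -0.08 ± 0.16, all overlapping. Nrgn was at -2.83 ± 1.21, -1.52 ± 0.26 and -1.49 ± 0.70, and layers A and B overlapped only through A3 and B3, both at -1.78. Without B3 they did not overlap, with a difference of -1.44. Between layers A and C, 6 genes did not overlap, adding Pvalb and Pcp4 to the same 4, so that 5 were lower in layer A (1.58% of all transcripts on this measure) and 1 was higher (44%). Pcp4 was at -2.59 ± 0.99 in layer A and -0.54 ± 0.27 in layer C. Between layers B and C only Calb1 did not overlap, lower in layer B as were 4.67% of all transcripts on this measure (0.815% were higher), at -2.23 ± 0.13 against -1.66 ± 0.21, and there B3 (-2.09) lay with B1 and B2 (-2.23 and -2.36). The value of Pvalb in A1, -12.3, comes from a count of 0 and is set by the prior count.

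**Figure D3:**
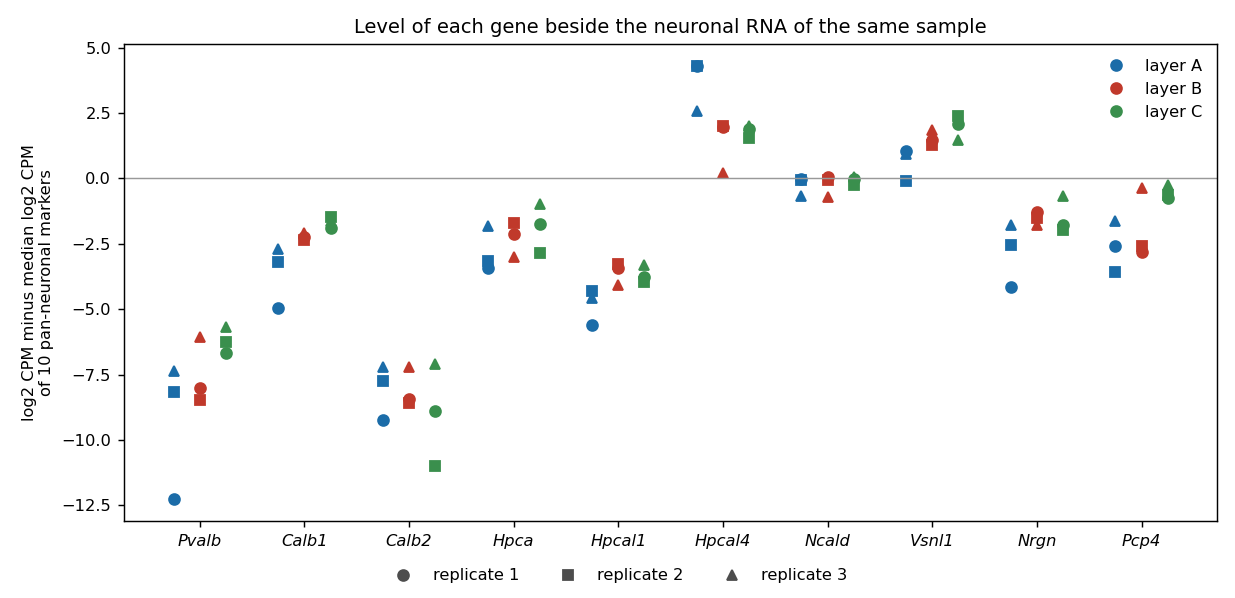
log2 CPM of each gene minus the median log2 CPM of 10 pan-neuronal markers in the same sample, by layer (colour) and replicate (marker). Hpcal4 in layer A lies highest, at 2.58 to 4.31, Ncald lies close to 0 in all layers, and Calb1 steps from layer A to layer C with no overlap between any of the 3 layers.

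Compared per kilobase of transcript, the order of the levels changed at the top between layers. In layer A, Hpcal4 led with 198 ± 66.3 CPM per kilobase (SD, n = 3), followed by Vsnl1 with 65.0 ± 36.01 and Pcp4 with 24.9 ± 23.3. In layer C, Vsnl1 led with 321 ± 122, followed by Pcp4 with 158 ± 12.7 and Hpcal4 with 106 ± 12.4. None of the neighbours among these 3 overlapped in layer C, while in layer A only Hpcal4 stood clear of the next gene. In layer B, Vsnl1 (299.6 ± 247), Pcp4 (140.0 ± 195) and Hpcal4 (86.2 ± 12.6) had the same order as in layer C, but neighbours overlapped. That order rested on B3, since the means of B1 and B2 alone were 157 CPM per kilobase for Vsnl1, 93.2 for Hpcal4, 30.8 for Ncald, 30.6 for Nrgn and 27.5 for Pcp4.

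Below them came Ncald, Nrgn and Hpca, at 15.9, 9.83 and 7.41 CPM per kilobase in layer A, 37.3, 40.8 and 18.04 in layer B and 37.4, 37.7 and 24.4 in layer C. Ncald and Nrgn overlapped in each layer. Calb1 and Hpcal1 followed, at 1.91 and 1.85 in layer A, 9.39 and 8.90 in layer B and 11.1 and 7.51 in layer C, and they separated from each other in layer C alone. Pvalb and Calb2 came last in every layer, at 0.273 and 0.239 in layer A, 1.83 and 0.618 in layer B and 2.08 and 0.309 in layer C, and again they stood apart only in layer C. The order per length takes coverage along a transcript as even.

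That coverage varied between libraries. A Ncald transcript of 858 bases that lacks most of the 3733 bases of the longest held 3.77% of the count of the longest in B3 and 21.5% and 16.2% in B1 and B2, with 6.78% to 19.3% in layer A and 8.42% to 13.2% in layer C. In Hpca a shorter transcript of 1568 bases was set beside the longest of 1847. Its share was 5.504% in B3, 38.5% and 37.0% in B1 and B2, and 6.15%, 33% and 22.6% in A1, A2 and A3. In Hpcal4 the lengths were 1627 and 4931 bases, and the share was 22.3% to 27.6% in layer B and 16.7% to 29.1% in layer A. With such different lengths the shares can be compared between libraries but not between genes. B3 was thus the lowest of the 9 libraries for Ncald and Hpca, but not for Hpcal4. The part of this in the fold changes was not tested.

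Replicate 3 was the highest sample of its layer in all 3 layers for 6 of the 10 genes (Pvalb, Calb2, Hpca, Hpcal1, Nrgn and Pcp4), and for 10.7% of all tested transcripts. Replicates 1 and 2 were so for none of the 10, and for 2.09% and 3.25% of all tested transcripts. Replicate 3 was also the library with the most counts in each layer. The part of depth in these levels was not tested.

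Profiles over the 9 samples were compared for the buffers by the root mean square difference of centred log2 CPM, with no test, among genes whose highest transcript had a mean count of at least 100. The genes nearest to Calb1 were Gpr83 (0.40), Tesc (0.40) and Kcnv1 (0.44), against a median of 1.53 over all 9249 candidates, and the same 3 came first with a prior count of 2 in place of 0.5. Tesc encodes tescalcin, itself an EF-hand protein, Gpr83 a receptor and Kcnv1 a potassium channel subunit. Nearest to Pvalb were Vwc2l (0.82), Avpi1 (0.86) and Arhgap15 (0.89), and with a prior count of 2 they were Tac1, Calb1 and Avpi1. Among the 3 nearest to Calb2 were Clec2l (0.43) and Grcc10 (0.45), of which Clec2l gave way to Scn4b with the other prior count. The lists of Pvalb and Calb2 thus depended on how counts near 0 were treated, and the points share the same libraries and depths.

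Other genes of the calcium pathway were taken from 3 lists and counted in the same fit. Calmodulin and its targets resembled the 10 genes. Of 20 genes, all tested, 13 were lower and 1 was higher in layer A than B, and the median log2 fold change was -1.29. The 3 largest decreases were those of the calmodulin gene Calm2 at -1.81 ± 0.43 (edgeR, adjusted p = 0.00890), the kinase kinase Camkk1 at -1.79 ± 0.39 (adjusted p = 0.00566) and the calcineurin subunit Ppp3ca at -1.77 ± 0.31 (adjusted p = 0.00160).

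Camk2a, the alpha subunit of the calmodulin-dependent kinase, whose mRNA is well known from dendrites, was the exception in this list, as Hpcal4 was among the 10. Its means in layers A, B and C were 2976 ± 1037, 812 ± 70.9 and 1122 ± 321 CPM (SD, n = 3 each). The log2 fold change was 1.87 ± 0.33 against layer B (edgeR, adjusted p = 0.00160) and 1.41 ± 0.33 against layer C (adjusted p = 0.0135). The genes of the beta and delta subunits were lower than in layer B, Camk2b at -1.56 ± 0.33 and Camk2d at -1.61 ± 0.32 on the log2 scale (adjusted p = 0.00484 and 0.00323).

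Among 8 other neuronal calcium sensor genes, 5 passed the filter on low counts, and the retinal genes Rcvrn, Guca1a and Guca1b did not. Ncs1, the gene that gives the family its name, was higher in layer A, at 97.9 ± 60.0 CPM against 34.4 ± 6.04 CPM in layer B (log2 fold change 1.51 ± 0.41, edgeR, adjusted p = 0.0196). The potassium channel partners Kcnip2 and Kcnip4 were lower, at -1.49 ± 0.36 (adjusted p = 0.0101) and -1.72 ± 0.44 (adjusted p = 0.0143). The median of the 5 tested was -0.65. Against layer C none of the 5 was called, and Ncs1 was at 1.31 ± 0.41 (edgeR, adjusted p = 0.0502). Without B3, 1 was called higher and 3 lower in layer A than C.

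Of the 26 other EF-hand genes 22 were tested. Between layers A and B, 5 were higher and 1 was lower in layer A, and over the 22 the median log2 fold change was 0.15. Without B3 these were 9 and 1 with a median of 0.52. S100a1 (2.66 ± 0.50, edgeR, adjusted p = 0.00231), S100b (2.44 ± 0.55, adjusted p = 0.00664) and Efhd1 (2.40 ± 0.57, adjusted p = 0.00976) had the largest increases, and S100b is a protein of astrocytes. Necab3, a neuronal EF-hand protein, was lower (-1.54 ± 0.36, adjusted p = 0.00818). Against layer C, 4 of the 22 were called higher in layer A and 0 lower, and without B3 these were 7 and 2. Efhd1 (1.09 ± 0.55, edgeR, adjusted p = 0.242) and Necab3 (-0.85 ± 0.35, adjusted p = 0.146) were not called against layer C with all 9 samples. The close relatives of the buffers, Ocm (oncomodulin, a parvalbumin) and Scgn (secretagogin, of the calbindin family), were too rare to be tested.

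**Figure D4:**
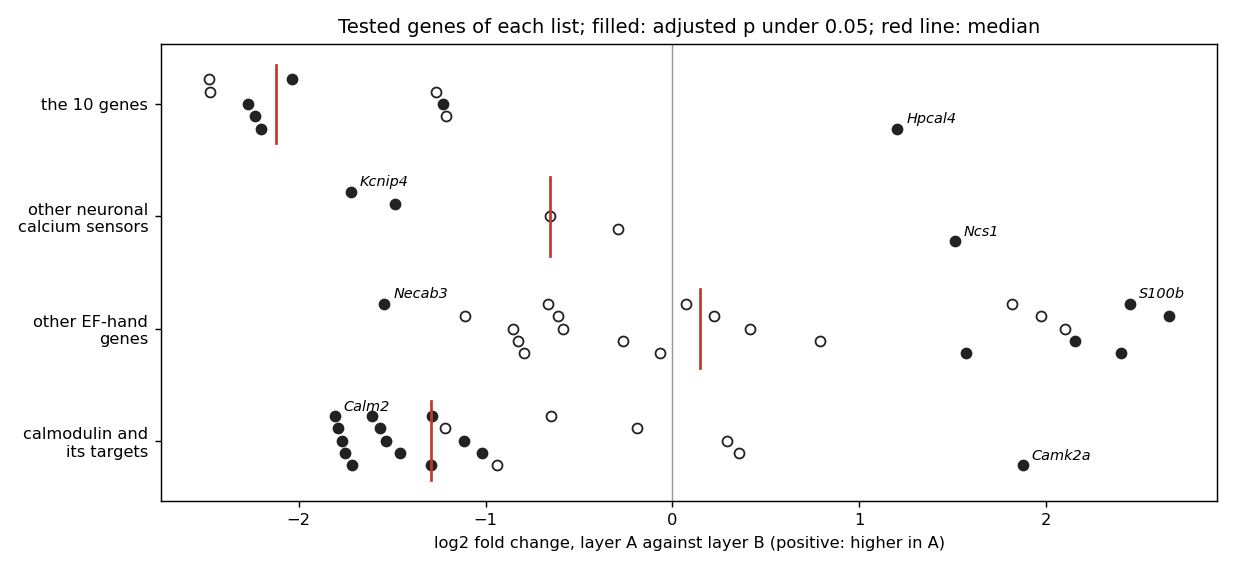
log2 fold change between layer A and layer B (positive: higher in layer A) of the tested genes of each list, with filled points for an adjusted p under 0.05 and a red line at the median. The 10 genes and the calmodulin list lie mostly left of 0, at medians of -2.12 and -1.29, with Hpcal4 and Camk2a as their filled points on the right.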

How the data were processed

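The authors amplified RNA from laser-captured tissue of 3 piriform layers (3 samples each), prepared libraries that did not mark strand, used Bowtie for alignment of paired reads to mm10, and deposited unnormalized counts for each Ensembl transcript. The submitters' notes also name HTSeq 0.5.3 and bcl2fastq 1.8.4, and how reads on several transcripts were counted is not given in the sources used here. Of 95533 transcripts, 82779 (86.6%) were found in GENCODE M21. The filter kept transcripts with 10 or more counts in 3 or more samples, which were scaled by TMM and tested with edgeR 4.0.16 (R 4.3.3) in 1 fit of all 9 samples, with Benjamini-Hochberg adjustment over all 56416. The fits were tested on simulated data. Depth was 23104306 to 76471683 counts per sample. DESeq2 1.42.0, another scaling, other filters, a replicate block, sums by gene and each sample left out were alternatives. log2 CPM used a prior count of 0.5. All 10 genes were named in every comparison, and of each other list the called genes with the 3 largest changes in each direction between layers A and B plus genes that define the list; a few genes that these rules name are not reported here. The genes and lists were chosen with earlier results of these data known. No protein table was used here, so coding DNA is shown.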

Additional observations from a re-analysis of the deposited data

How the results depend on the processing

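The counts of the 10 genes called stayed within 1.5 times of those given under another scaling (RLE), without mitochondrial transcripts, with sums by gene and with the second transcript. Between layers A and C, where 6389 of all 56416 transcripts were called, 5 genes became 8 under several alternatives. These were no filter on low counts (7198 of 79414 transcripts called), the replicate block (6384 of 56416) and only the 6 samples compared (7925 of 51687). The others were DESeq2 (8883 of 56416), and the block without B3 (9240 of 55684), the last chosen after seeing the data. DESeq2 gave Pcp4 no adjusted p. The cause was not tested. Single samples mattered more. Over the fits without 1 sample the genes called ranged from 2 to 8 for A against B, 1 to 9 for A against C and 1 to 8 for any difference, and stayed at 0 for B against C. Between layers A and B they were 3 without A1, 2 without A2 and 3 without B3. All transcripts called there numbered 5570, 6333 and 11337, against 9329 with all samples. Between layers A and C the genes called were 2 without A1, 1 without A2, 1 without C1, 8 without A3 and 9 without B3. All transcripts called there numbered 2727, 3238, 1369, 5020 and 9740, against 6389 with all samples. Among the 3 layers the genes called were 1 without A1 and 1 without A2. All transcripts called there numbered 4070 and 4707, against 8061 with all samples. These fits tested 54819 to 56416 transcripts. The ranges between layers A and B were 1 to 3 for the other sensors (1 without A2), 3 to 10 for the other EF-hand genes (3 without A1, 10 without B3) and 9 to 13 for the calmodulin list (9 without A2), and the EF-hand count was 10 with the block and without B3. Members separated from layer B to layer C beside the neuronal markers ranged from 1 to 4 (4 without B3 or without C3). The log2 fold change of Calb2 ranged from -2.25 to 0.38 between layers A and B and from -1.39 to 0.84 between layers A and C, and no other gene changed direction in those comparisons under any alternative run.

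Between layers B and C, where none of the 10 genes was called, directions changed when 1 sample was left out. Pvalb ranged from -2.48 to 0.30, Calb1 from -1.03 to 0.033, Calb2 from -0.73 to 2.02 and Hpcal1 from -0.056 to 0.33. The range was -0.33 to 0.14 for Ncald, -1.07 to 0.22 for Vsnl1, -0.35 to 0.46 for Nrgn and -2.57 to 0.30 for Pcp4. Ncald was 0.0046 with 10 counts in all 9 samples, and Hpca was 0.0495 with the block and without B3.

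The labels give the layers the same replicate numbers, with no statement of what a number shares. Deviations from the layer means correlated between same-numbered samples from -0.19 to 0.24 over 9 pairs, above 0.1 in 4, and 4 of the 9 samples correlated best with one of their own number, so the numbers were not taken as pairs. With the replicate block, the genes called were 8 for A against B, 8 for A against C, 0 for B against C and 9 for any difference. Of all 56416 transcripts, 9184, 6384, 0 and 7903 were called in the same order. The block called Hpca between layers A and B (-1.66, adjusted p = 0.0193) and A and C (-1.93, adjusted p = 0.0139), Pvalb between A and C (-3.48, adjusted p = 0.0159) and Pcp4 in both (adjusted p = 0.0287 and 0.00464), which had not passed without the block. Counts limit Pvalb and Calb2 most, with at most 27 counts in any layer A sample.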

Other observations

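Among markers of glutamatergic neurons, Neurod2, a transcription factor of these neurons, had log2 fold changes in layer A of -1.62 ± 0.39 against layer B (edgeR, adjusted p = 0.0106) and -1.29 ± 0.39 against layer C (adjusted p = 0.0445). Of the GABAergic markers, Gad2, which encodes an enzyme that makes GABA, was higher in layer A than B, at 1.91 ± 0.45 (adjusted p = 0.00941). Lhx6 and Sst were singled out after their values were seen. Both are also among the candidate genes that the study picked from these same libraries, so their values are not independent evidence. Lhx6, a transcription factor of the interneuron lineage that includes parvalbumin and somatostatin cells, was lower in layer A than C, at -2.32 ± 0.52 (adjusted p = 0.0117), as was Sst at -3.62 ± 0.87 (adjusted p = 0.0153).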
